A study of Mus musculus with 10 samples.

Results

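The 10 early genes described here belong to 4 families: the zinc-finger transcription factors Egr1 and Egr2, the Krüppel-like factors Klf2, Klf4 and Klf6, the orphan nuclear receptors Nr4a1 and Nr4a2, and the immediate early response genes Ier2, Ier3 and Ier5. They were chosen by symbol, and 10 of 10 were found, each on 1 probe set annotated with that symbol alone. They are 10 of the 22180 genes with such a probe set and of the 17712 genes bright enough to be tested. RNA came from cells of the mouse cortex sorted as astrocytes, by flow cytometry on an EGFP reporter at 8 weeks of age. It was read on Affymetrix whole-transcript arrays. The labels place 5 arrays in the Control group, of wild-type genotype, and 5 in the FMR1-KO group, of the genotype FMR1_KO, and every array carries material sorted on the reporter. Strain, sex, the promoter that drives EGFP, and whether a replicate is 1 animal or a pool remain unstated in the labels and design text. The p-values therefore measure the spread between these samples, which the titles call biological replicates. The product of Fmr1, FMRP, binds mRNAs and restrains their translation. The comparison asks whether loss of Fmr1 goes with other levels of these genes in material sorted as astrocytes.

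Early genes are transcribed within minutes of a stimulus by factors already present in the cell, without new protein synthesis. The serum response factor Srf with its partners of the Elk family, acting through the DNA element called the CArG box, and the cAMP-responsive factor Creb1, whose binding element contains TGACG, are the best known of these. Most early genes encode transcription factors that carry the response to a later set of genes. In astrocytes and microglia they respond to transmitters, growth factors and inflammatory signals, and their transcripts are also known to rise when brain tissue is dissociated into single cells.

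Some features of the arrays bear on every value below. The log2 signal of Fmr1 was 8.04 ± 0.26 (SD, n = 5) on Control arrays and 8.22 ± 0.15 (SD, n = 5) on FMR1-KO arrays, so the mean of the group labelled FMR1-KO was the higher one, and the part of the gene that its probe set reads is unknown here. Xist read 10.6 and 10.98 on Control arrays 2 and 3 and 4.98 to 5.23 on the other 8. The Y-linked genes Uty, Kdm5d and Eif2s3y read 4.767 to 5.184 on Control arrays 2 and 3 and 7.055 to 8.798 on the other 8. By these genes Control arrays 2 and 3 read as female and the other 8 as male, so sex was not balanced between the groups. Astrocyte markers were high on average on all arrays. Their mean log2 level over 24 genes was 9.40 to 10.2 on Control arrays and 9.59 to 10.6 on FMR1-KO arrays. Single markers were lower, among them S100b at 6.77 to 8.32 and Gfap at 7.23 to 8.25 over the 10 arrays. Microglia and macrophage markers were also high, with a mean over 28 genes of 9.46 on Control array 1, 10.2, 10.3, 10.3 and 10.3 on Control arrays 2 to 5, 9.35 and 8.78 on FMR1-KO arrays 1 and 2, and 10.0, 10.1 and 9.82 on FMR1-KO arrays 3 to 5. None of these 28 markers had a mean below the cutoff for dim probe sets, a log2 level of 5.32. Not all of them were high, with Pf4 at 5.16 to 6.04, F13a1 at 5.67 to 6.94 and Lyve1 at 6.2 to 6.6 over the 10 arrays. On Control arrays 2 to 5 the microglia mean was above the astrocyte mean (9.45, 9.548, 9.755 and 9.403). The same held on FMR1-KO arrays 3 to 5 (astrocyte mean 9.722, 9.824 and 9.588). On Control array 1 and FMR1-KO arrays 1 and 2 the astrocyte mean was the higher one (10.168, 10.545 and 10.614). Which cells the members' signal came from was not tested. In material from many cells, fewer cells of a type and less RNA per cell cannot be told apart.

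Egr1, Egr2, Klf2, Klf4, Klf6, Ier2, Ier3 and Ier5 had lower mean levels in the FMR1-KO group, and Nr4a1 and Nr4a2 slightly higher ones. The 8 lower differences ran from -0.58 to -0.30 on the log2 scale and the 2 higher ones were 0.09 and 0.19, with a median over the 10 genes of -0.41. Over all genes tested the median difference was -0.01, and 53.2% of genes had a lower mean in the FMR1-KO group. No member passed the test (limma, Benjamini-Hochberg adjusted over all genes, adjusted p of 0.654 to 0.920), against 0% of all genes. At an unadjusted p under 0.05 there was 1 lower member, Ier3, and no higher one, where 3.53% of all genes were lower and 4% higher at that level. The groups overlapped for 10 of 10 members, and for all but 0.965% of all genes.

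The count at an unadjusted p under 0.05 moved with single arrays, and so did the share of all genes that were lower at that level, 3.53% with all arrays. The count was 5 of 10 without Control array 1, where 7.09% of all genes were lower. It was 4 without FMR1-KO array 4 (4.18% of all genes), 2 without FMR1-KO array 3 (5.04%) and 2 without FMR1-KO array 5 (2.82%). It was 0 without Control array 4 (2.34%) or FMR1-KO array 2 (2.5%). Without Control arrays 2 and 3, the pair with high Xist, or without either of them, it was again 1, but that member was Klf4 and not Ier3. The share of all genes that were lower was 2.43% without both, 3.06% without Control array 2 and 2.75% without Control array 3. The 8 genes kept their lower means under the removal of any single array, but all 8 differences were nearer 0 without FMR1-KO array 2, from -0.37 for Ier3 to -0.08 for Ier2, and Nr4a1 and Nr4a2 turned to -0.02 and -0.06. Without Control array 1 and FMR1-KO arrays 1 and 2 together, the 3 arrays lowest in microglia markers, the median difference of the 10 genes was -0.20 in place of -0.41, and 3 members (Klf6, Ier3 and Ier5) had an unadjusted p under 0.05, where 5.57% of all genes were lower. When each array's microglia level entered the fit as a covariate, the median difference of the 10 genes was -0.01 in place of -0.41, the count was 0 (2.67% of all genes lower), and 5 of 10 members had a lower mean. Those 28 markers had a lower mean in the FMR1-KO group in 28 of 28 cases, with 7 at an unadjusted p under 0.05 (3.53% of all genes lower). Their mean ranged from 9.46 to 10.3 on Control arrays and from 8.78 to 10.1 on FMR1-KO arrays. Astrocyte markers had a higher mean in 24 of 24 cases, with a median of 0.40 and 6 at an unadjusted p under 0.05 (4% of all genes higher). Choroid plexus and ependyma markers had a lower mean in 8 of 9 cases, with a median of -0.27 and 0 at that level, and a mean level of 8.05 to 8.84 on Control and 7.81 to 8.58 on FMR1-KO arrays. The microglia markers behind the covariate themselves had lower means in the FMR1-KO group, so that fit cannot cleanly separate marker level from group. The part of these marker lists in the members' differences was not tested.

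**Figure D1:**
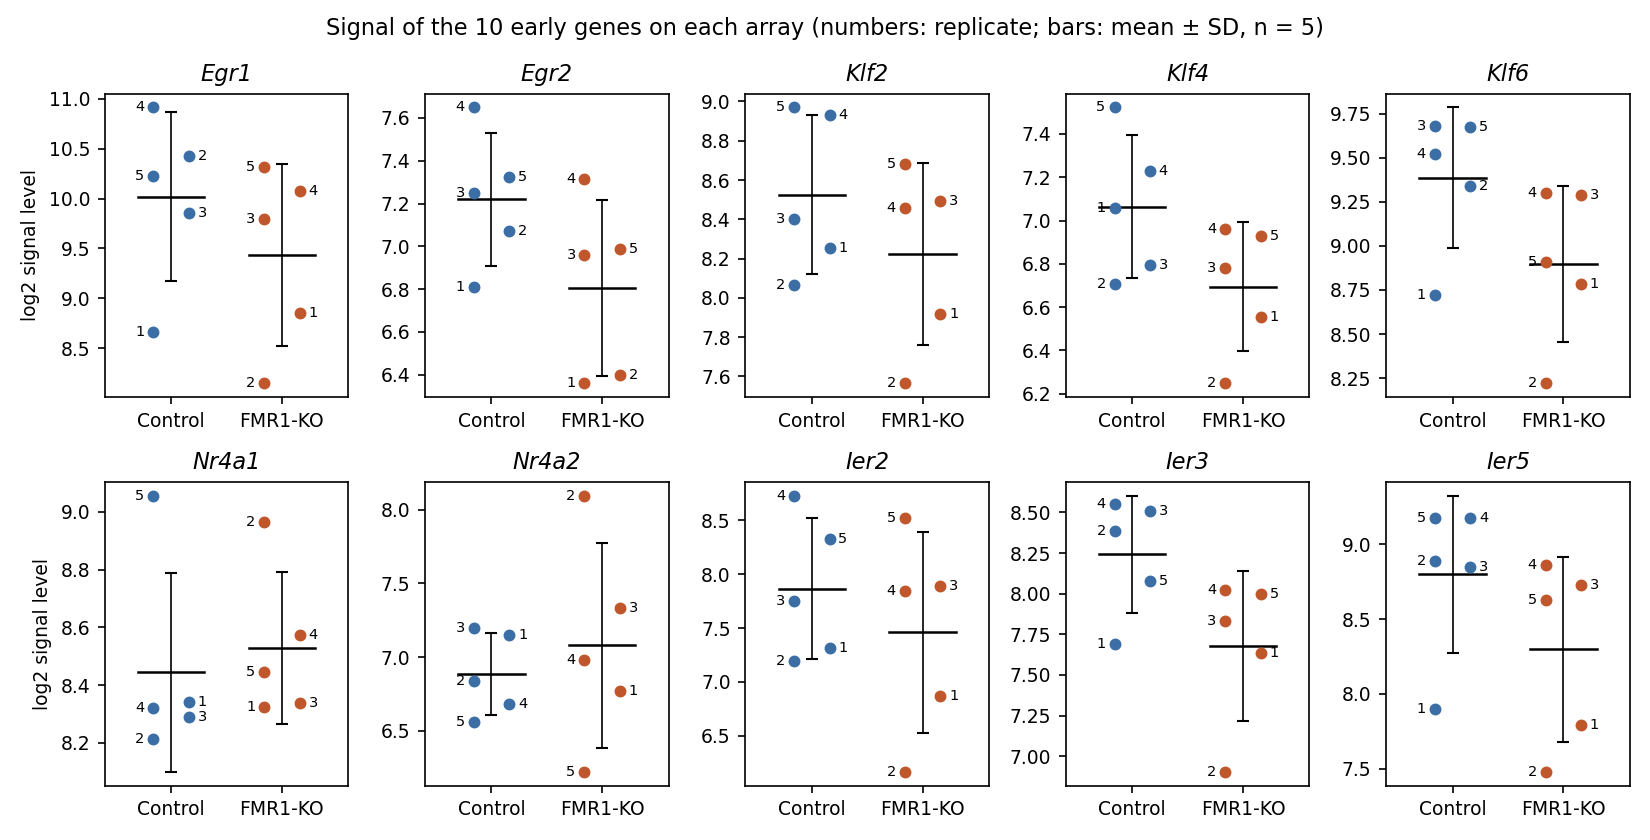
Log2 signal of each of the 10 genes (vertical axes, a separate scale per gene) on the 5 Control and 5 FMR1-KO arrays, with the replicate number beside each point and the mean ± SD in black. The groups overlap for all 10 genes. FMR1-KO array 2 is the lowest point for 7 of them, and for Nr4a2 it is the highest, at 8.09.

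Egr1 encodes a zinc-finger factor induced by growth factors and by synaptic activity, and it had the widest range over the arrays, 2.77 log2 units. Its log2 level on Control arrays 1 to 5 was 8.66, 10.4, 9.85, 10.9 and 10.2, and on FMR1-KO arrays 1 to 5 it was 8.85, 8.15, 9.80, 10.1 and 10.3. Control array 1 and FMR1-KO arrays 1 and 2 thus read 8.15 to 8.85, below the other 7 arrays at 9.80 to 10.9, and the groups overlapped over most of that range. The difference, FMR1-KO minus Control, was -0.58 ± 0.46 (SE, 95% interval -1.58 to 0.42, limma adjusted p = 0.745), from 10.0 ± 0.85 (SD, n = 5) on Control arrays and 9.44 ± 0.91 (SD, n = 5) on FMR1-KO arrays. Leaving out single arrays moved it to -0.92 (Control array 1), -0.36 (Control array 4) and -0.26 (FMR1-KO array 2). It was -0.29 without the 3 arrays lowest in microglia markers and 0.29 (95% interval -0.21 to 0.80) with the microglia covariate.

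Egr2 encodes a related factor known for driving myelination by Schwann cells and for its induction in activated immune cells. On Control arrays 1 to 5 it read 6.81, 7.07, 7.25, 7.65 and 7.32, and on FMR1-KO arrays 1 to 5 it read 6.36, 6.40, 6.96, 7.32 and 6.99. The order of arrays resembled that of Egr1, with the same 3 arrays lowest and Control array 4 highest. Its difference was -0.42 ± 0.20 (SE, 95% interval -0.85 to 0.02, adjusted p = 0.655), and 4 of 5 FMR1-KO arrays lay below the Control mean. It was -0.24 without the 3 arrays lowest in microglia markers (95% interval -0.55 to 0.08) and -0.07 with the microglia covariate.

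RefSeq promoter sequences of assembly GRCm38.p6, from 250 bases before to 50 bases after a start site, were matched by symbol for 8 of 10 members, and not for Egr1 and Ier2. Egr2 has 5 annotated starts, and a CArG box was found by a search of both strands before 4 of them and before 0 of the other 7 members, against 1.63% of all 32851 promoters. The windows of starts 3 to 5 overlap and hold the same box, so the 4 matches are not 4 separate sites. The stretch before the third of the 5 starts is shown because it holds the CArG box together with 2 copies of TGACG. It covers chr10:67537619-67537868 on the plus strand, the 250 bases before the start, 5′ to 3′. Capitals mark the CArG box, 72 to 63 bases before the start, and TGACG or its reverse complement CGTCA.

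Egr2: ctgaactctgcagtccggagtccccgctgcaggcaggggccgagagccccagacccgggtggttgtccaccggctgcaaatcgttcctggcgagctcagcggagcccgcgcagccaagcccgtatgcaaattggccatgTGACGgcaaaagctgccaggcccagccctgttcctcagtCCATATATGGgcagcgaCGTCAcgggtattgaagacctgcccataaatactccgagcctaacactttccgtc

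Klf2 encodes a factor that in blood vessels is induced by flow and restrains inflammation, and that also keeps leukocytes quiescent. Its log2 level was 8.25, 8.07, 8.40, 8.93 and 8.97 on Control arrays 1 to 5 and 7.92, 7.57, 8.49, 8.46 and 8.68 on FMR1-KO arrays 1 to 5. The highest readings were on Control arrays 4 and 5 and the lowest on FMR1-KO array 2, with the remaining arrays interleaved. The difference was -0.30 ± 0.23 (SE, 95% interval -0.81 to 0.21, adjusted p = 0.739). Leaving out Control array 4, Control array 5 or FMR1-KO array 2 gave -0.20, -0.19 and -0.14. Without the 3 arrays lowest in microglia markers it was -0.05 (95% interval -0.47 to 0.37), and with the microglia covariate 0.07.

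Klf4 is best known as a pluripotency factor and acts in endothelium and in monocytes as well. It read 7.06, 6.71, 6.80, 7.23 and 7.52 on Control arrays 1 to 5 and 6.55, 6.25, 6.78, 6.96 and 6.93 on FMR1-KO arrays 1 to 5. Unlike for Egr1 and Egr2, Control array 1 was the third highest of the 10 arrays, while FMR1-KO arrays 1 and 2 were again lowest. All 5 FMR1-KO arrays lay below the Control mean of 7.06 ± 0.33 (SD, n = 5), with a mean of 6.69 ± 0.30 (SD, n = 5). The difference was -0.37 ± 0.17 (SE, 95% interval -0.75 to 0.01, adjusted p = 0.655). Without Control arrays 2 and 3 it was -0.58 (95% interval -0.98 to -0.17, adjusted p = 0.893), without the 3 arrays lowest in microglia markers -0.17 (95% interval -0.56 to 0.21), and with the microglia covariate -0.17.

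Endothelial markers moved between the arrays as well. Of 17 tested, 15 had a lower and 2 a higher mean in the FMR1-KO group, and Ly6c1 lay below the cutoff for dim probe sets. At an unadjusted p under 0.05, 5 of them were lower, where 3.53% of all genes were lower. Several markers were dim, with Tek at 5.41 to 5.79, Emcn at 5.70 to 6.22 and Esam at 5.88 to 6.24 over the 10 arrays. Bsg and Slc2a1 were the brightest. Slc2a1 was highest on FMR1-KO arrays 1 and 2 (10.31 and 10.45), the arrays highest in astrocyte markers. The mean over 18 markers was 6.96 or higher on Control arrays 1, 4 and 5, the arrays on which Klf4 was highest, and 6.78 and 6.67 on Control arrays 2 and 3. On FMR1-KO arrays it was 6.61 to 6.76. With this mean as a covariate, an alternative chosen after the data were seen, the difference of Klf2 was -0.11 (95% interval -0.84 to 0.62), that of Klf4 -0.10 (-0.60 to 0.40) and that of Ier2 -0.21 (-1.57 to 1.14). Egr2 was at -0.42, Egr1 at -0.72 (95% interval -2.20 to 0.76), Klf6 at -0.61, Ier5 at -0.60 and Ier3 at -0.77 (-1.46 to -0.08), and Nr4a1 and Nr4a2 were at 0.22 and 0.07. The intervals of all 10 members overlapped one another.

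Klf6, a widely expressed Krüppel-like factor, read 8.72, 9.34, 9.68, 9.52 and 9.68 on Control arrays 1 to 5 and 8.78, 8.22, 9.29, 9.30 and 8.91 on FMR1-KO arrays 1 to 5. Control arrays 2 to 5 were above every FMR1-KO array, and Control array 1 was below 4 of them but not below FMR1-KO array 2. The difference was -0.49 ± 0.23 (SE, 95% interval -0.98 to 0.01, adjusted p = 0.654), and 5 of 5 FMR1-KO arrays lay below the Control mean. It was -0.04 (95% interval -0.26 to 0.18) with the microglia covariate. Without FMR1-KO array 2 it was -0.32, and without the 3 arrays lowest in microglia markers -0.39 (95% interval -0.68 to -0.10, adjusted p = 0.377).

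Ier2 encodes a nuclear protein induced by serum and growth factors. On Control arrays 1 to 5 it read 7.32, 7.20, 7.75, 8.73 and 8.32, and on FMR1-KO arrays 1 to 5 it read 6.87, 6.17, 7.89, 7.85 and 8.53. FMR1-KO array 5 was the second highest array and FMR1-KO array 2 by far the lowest, so the groups overlapped widely. The difference was -0.40 ± 0.42 (SE, 95% interval -1.32 to 0.51, adjusted p = 0.814). It was -0.19 without Control array 4, -0.26 without FMR1-KO array 1, -0.08 without FMR1-KO array 2 and -0.67 without FMR1-KO array 5. It was 0.09 without the 3 arrays lowest in microglia markers and 0.30 with the microglia covariate.

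Ier3, also called IEX-1, encodes a regulator of cell survival that is a target of NF-kappaB. It had the smallest p of the members. Its log2 level was 7.69, 8.38, 8.51, 8.55 and 8.08 on Control arrays 1 to 5 and 7.63, 6.90, 7.83, 8.02 and 8.00 on FMR1-KO arrays 1 to 5. Every FMR1-KO array lay below Control arrays 2 to 5, and Control array 1 lay below FMR1-KO arrays 3 to 5. The means were 8.24 ± 0.36 (SD, n = 5) and 7.68 ± 0.46 (SD, n = 5), a difference of -0.57 ± 0.22 (SE, 95% interval -1.05 to -0.08), or 0.676-fold. The unadjusted p of 0.0259 ranked 687th among all genes tested and became 0.654 after adjustment (limma). The difference was -0.37 without FMR1-KO array 2, -0.43 (95% interval -0.71 to -0.15, adjusted p = 0.330) without the 3 arrays lowest in microglia markers, and -0.15 (95% interval -0.44 to 0.13) with the microglia covariate.

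Ier5 encodes a protein that acts with the heat shock factor Hsf1. It read 7.90, 8.89, 8.85, 9.18 and 9.18 on Control arrays 1 to 5 and 7.79, 7.48, 8.73, 8.86 and 8.63 on FMR1-KO arrays 1 to 5. The 10 arrays fell into 3 low readings, on Control array 1 and FMR1-KO arrays 1 and 2, and 7 readings between 8.63 and 9.18. The difference was -0.50 ± 0.30 (SE, 95% interval -1.16 to 0.16, adjusted p = 0.686). It was -0.30 without FMR1-KO array 2, -0.28 (95% interval -0.55 to -0.02, adjusted p = 0.515) without the 3 arrays lowest in microglia markers, and 0.12 (95% interval -0.13 to 0.36) with the microglia covariate.

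The Nr4a genes had another order of arrays than the other members. Nr4a1, also called Nur77, is a nuclear receptor without a known natural ligand that is induced in activated leukocytes, neurons and glia. It read 8.34, 8.21, 8.29, 8.32 and 9.06 on Control arrays 1 to 5 and 8.33, 8.96, 8.34, 8.57 and 8.45 on FMR1-KO arrays 1 to 5. It was high on Control array 5 and FMR1-KO array 2 and lay between 8.21 and 8.57 on the other 8. The difference was 0.09 ± 0.17 (SE, 95% interval -0.29 to 0.46, adjusted p = 0.920), and it ranged from -0.02 without FMR1-KO array 2 to 0.24 without Control array 5. It was -0.02 without the 3 arrays lowest in microglia markers and 0.01 with the microglia covariate.

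Nr4a2, or Nurr1, is required for midbrain dopamine neurons and has been described as a repressor of inflammatory genes in glia. Its log2 level was 7.15, 6.84, 7.20, 6.68 and 6.56 on Control arrays 1 to 5 and 6.77, 8.09, 7.34, 6.98 and 6.22 on FMR1-KO arrays 1 to 5. The highest array was FMR1-KO array 2, on which 7 of the other members were lowest, and the lowest was FMR1-KO array 5. The difference was 0.19 ± 0.28 (SE, 95% interval -0.42 to 0.81, adjusted p = 0.880), and it ranged from -0.06 without FMR1-KO array 2 to 0.41 without FMR1-KO array 5. It was 0.03 without the 3 arrays lowest in microglia markers and -0.13 with the microglia covariate. The SD was 0.70 on FMR1-KO arrays and 0.28 on Control arrays.

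Nr4a3, the third gene of that family and not a member, read 7.40 on FMR1-KO array 2 and 6.11 to 6.75 on the other FMR1-KO arrays, against 6.04 to 6.61 on Control arrays. It differed by 0.28 ± 0.20 (SE, adjusted p = 0.720). FMR1-KO array 2 was therefore the highest FMR1-KO array for all 3 Nr4a genes.

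**Figure D2:**
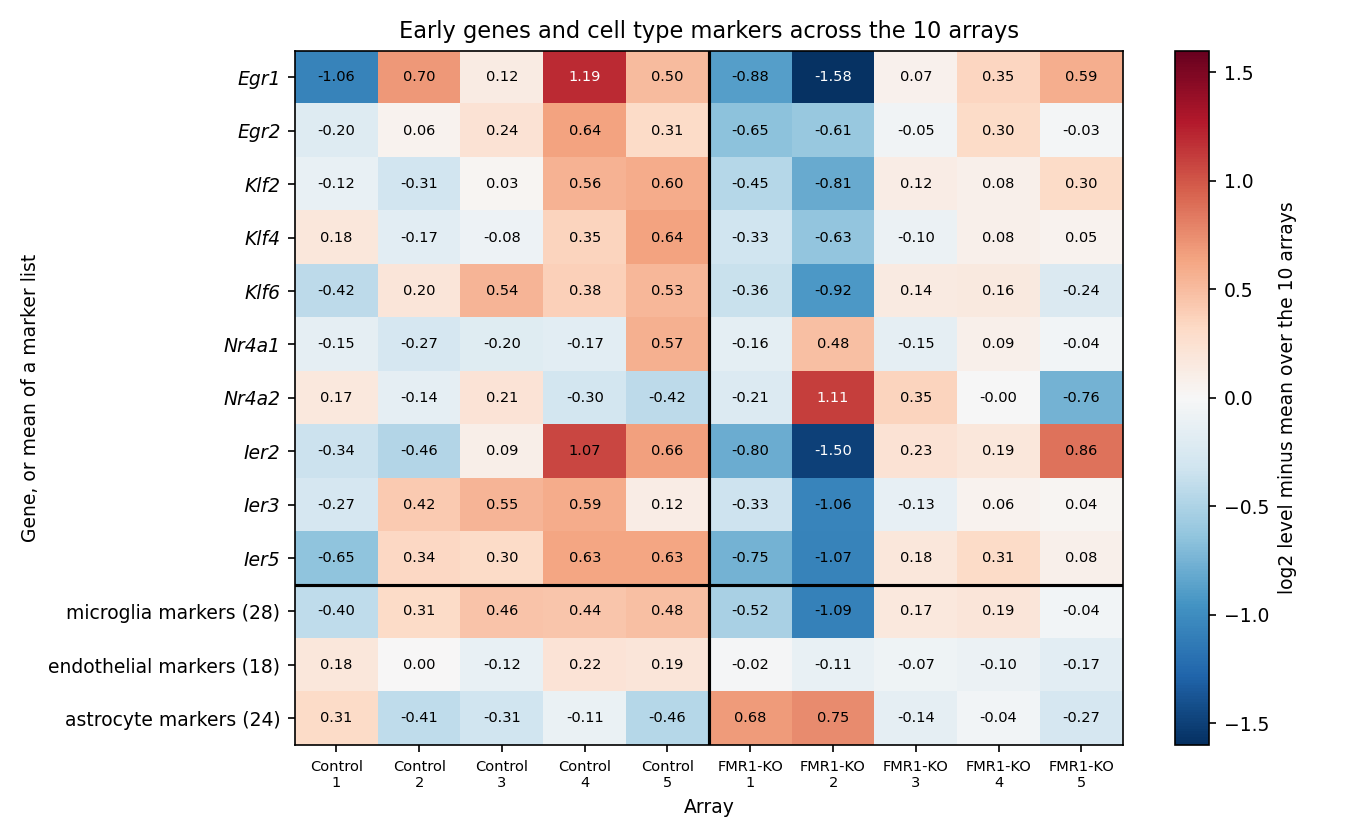
Log2 level minus the mean over the 10 arrays (colour and printed number) for each gene, with arrays in columns. The 3 lowest lines give the same for the mean of the microglia and macrophage, endothelial and astrocyte markers. On FMR1-KO array 2, the array with the lowest microglia and the highest astrocyte markers, Egr1 is at -1.58 and Ier2 at -1.50, while Nr4a2 is at 1.11.

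The promoters of the Nr4a genes were rich in the TGACG letters. This motif was searched on both strands in the same 300-base windows, overlapping matches allowed. It occurred 4 times in the promoter of Nr4a1, 4 times in that of Nr4a2 and 4 times in that of Nr4a3, 1 time each in those of Klf2 and Klf4, 2 times before 3 of the 5 Egr2 starts, and 0 times in those of Klf6, Ier3 and Ier5. The windows of those 3 Egr2 starts overlap and hold the same 2 copies. Of all 32851 promoters, 20.8% held at least 1 copy, 5.01% at least 2 and 0.231% at least 4. A match describes letters and not a bound site. The 250 bases before the start of Nr4a1 (chr15:101266596-101266845, plus strand) and of Nr4a2 (chr2:57124004-57124253, minus strand) are given 5′ to 3′ to show where the copies lie, with TGACG or CGTCA in capitals.

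Nr4a1: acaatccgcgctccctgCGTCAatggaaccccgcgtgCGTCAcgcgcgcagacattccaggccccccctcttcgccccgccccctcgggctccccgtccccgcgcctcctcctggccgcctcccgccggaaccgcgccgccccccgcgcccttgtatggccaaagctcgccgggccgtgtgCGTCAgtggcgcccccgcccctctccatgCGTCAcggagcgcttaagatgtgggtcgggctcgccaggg
Nr4a2: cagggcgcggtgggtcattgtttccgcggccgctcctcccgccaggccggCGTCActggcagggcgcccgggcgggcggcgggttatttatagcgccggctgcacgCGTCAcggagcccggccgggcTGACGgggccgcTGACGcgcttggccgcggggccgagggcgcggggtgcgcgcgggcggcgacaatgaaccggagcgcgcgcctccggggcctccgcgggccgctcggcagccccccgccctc

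In Nr4a1 the copies lay 233 to 229, 213 to 209, 69 to 65 and 40 to 36 bases before the start, and in Nr4a2 200 to 196, 144 to 140, 123 to 119 and 111 to 107 bases before it.

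Across the 10 arrays the Egr, Klf and Ier genes varied together. Pearson's r over the 28 pairs of these 8 genes ran from 0.582 (Klf4 with Ier3) to 0.973 (Klf2 with Ier2), with a median of 0.83. Against Nr4a2 the 8 genes had an r of -0.728 to -0.455, and against Nr4a1 -0.5 to 0.123. Nr4a1 and Nr4a2 had an r of 0.242 with each other. These values describe 10 arrays, and all genes on an array share its cell makeup and scaling. Between the arrays the microglia and macrophage mean ran from 8.78 to 10.3, and its part in r was not tested. The division into 8 and 2 genes was made after the values were seen.

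The genes outside the list with the most similar pattern were named by the highest r over the 10 arrays, as a description. For the mean of the 10 standardised members they were Ccl24 (r = 0.981, rho = 0.988), Man1a2 (r = 0.979), Cerk (r = 0.978), Limk1 (r = 0.976) and Trpv2 (r = 0.975). The closest to Klf6 was B2m, the light chain of class I antigen-presenting molecules (r = 0.998, rho = 0.964), to Ier5 the lipopeptide receptor Tlr1 (r = 0.992, rho = 0.939), and to Ier3 the inflammasome adaptor Pycard (r = 0.981, rho = 0.988). Il6st was closest to Egr1 (r = 0.975), Mcfd2 to Egr2 (r = 0.976), Otulin to Klf2 (r = 0.959), Anp32b to Klf4 (r = 0.962) and Sema4g to Ier2 (r = 0.953). Nr4a1 was closest to Sik1, a kinase gene induced by cAMP signalling (r = 0.862, rho = 0.685), and Nr4a2 to Pex10 (r = 0.937, rho = 0.891). Sik1 read 8.31 on Control array 5 and 8.60 on FMR1-KO array 2, the arrays on which Nr4a1 was highest, and 7.02 to 7.77 on the other 8.

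**Figure D3:**
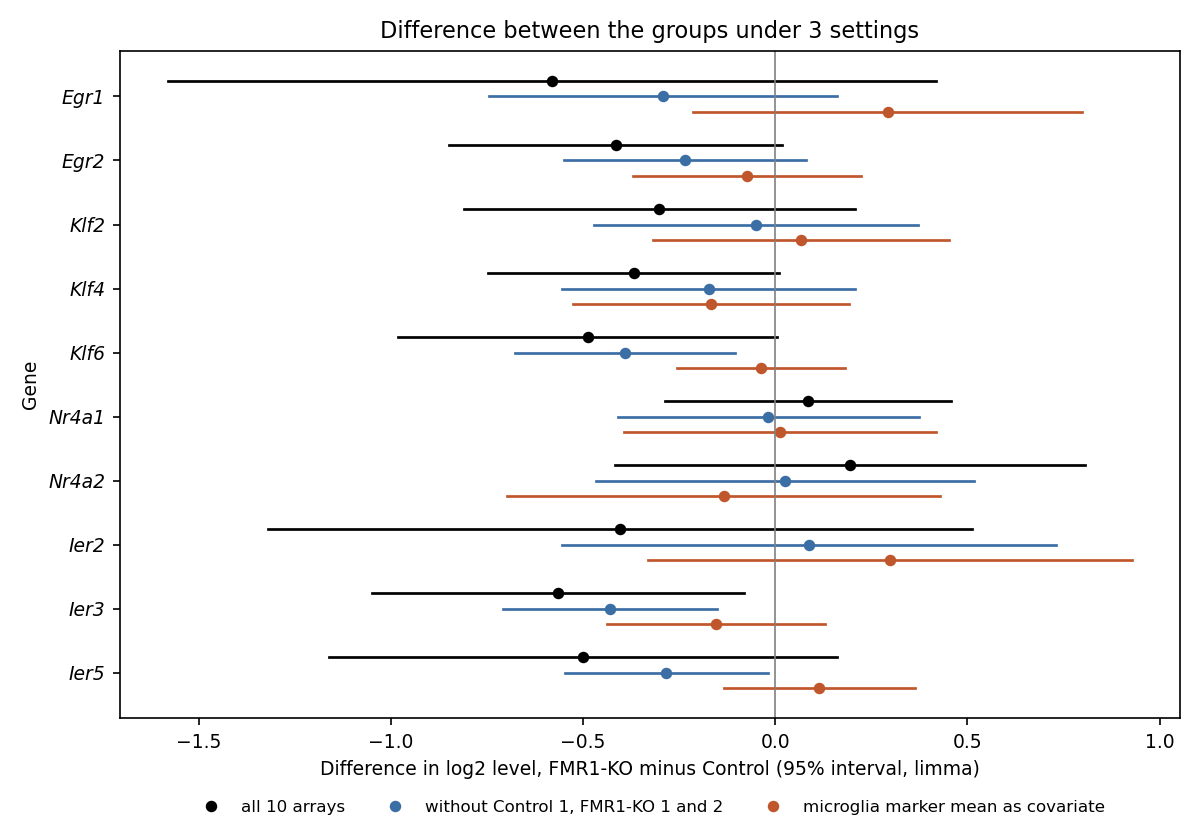
Difference in log2 level, FMR1-KO minus Control, with its 95% interval from limma, for each gene with all 10 arrays (black), without Control array 1 and FMR1-KO arrays 1 and 2 (blue), and adjusted for the microglia marker level of each array (orange). With all 10 arrays only the interval of Ier3, -1.05 to -0.08, lies on one side of 0, and with the covariate the interval of every gene includes 0.

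Other genes of the early response were read from lists written with earlier results of these data known. Of 52 tested early genes outside the members' families, 42 averaged lower and 10 higher in the FMR1-KO group. Their median difference was -0.30, and 6 were lower and 0 higher at an unadjusted p under 0.05. Of all genes tested, 3.53% were lower and 4% higher at that level. None passed after adjustment (limma adjusted p of 0.654 or higher). The smallest p belonged to Csrnp1, a nuclear factor (-0.37 ± 0.12, SE), followed by the kinase gene Sgk1 (-0.63 ± 0.24), the survival gene Mcl1 (-0.52 ± 0.21) and the AP-1 factor Fosl2 (-0.23 ± 0.10). The mean level of the 52 genes was lowest on FMR1-KO array 2 at 7.72 and highest on Control array 5 at 8.74, and was 7.98 and 8.00 on FMR1-KO array 1 and Control array 1.

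Relatives in the same families were divided evenly between higher and lower means. Of 18 tested Egr, Klf, Nr4a, Ier5l and Wt1 genes, 9 averaged higher and 9 lower in the FMR1-KO group. Their median difference was -0.02, and Klf1 lay below the cutoff for dim probe sets. Klf12, a transcriptional repressor, was higher at an unadjusted p of 0.0183 (0.30 ± 0.11, SE, limma adjusted p = 0.654). At an unadjusted p under 0.05, 4% of all genes were higher. Klf16 differed by -0.24 ± 0.11, Klf11 by -0.23 ± 0.11 and Klf13 by -0.26 ± 0.15. Klf9, a target of glucocorticoid and thyroid hormone receptors, read 9.76 and 9.74 on FMR1-KO arrays 1 and 2 and 8.06 to 9.07 on the other 8 arrays, and Klf15 read 8.74 and 8.58 on that pair against 7.57 to 8.42. Both were thus highest where most members were lowest. They were singled out after their values were seen.

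Regulators upstream of the early genes showed no common direction. Of 20 tested, 8 averaged higher and 12 lower, and the median was -0.04. The Srf partner Elk1 (0.38 ± 0.14, SE) and the Creb1 coactivator Crtc3 (0.30 ± 0.12) were higher at an unadjusted p under 0.05. The ribosomal S6 kinase Rps6ka3 was lower at that level (-0.34 ± 0.12), and each of these genes had a limma adjusted p of 0.654. Among all genes tested, 4% were higher and 3.53% lower at that level, and 53.2% had a lower mean. Creb1 differed by -0.27 ± 0.13 (adjusted p = 0.655), and Srf, which read 7.48 ± 0.09 and 7.45 ± 0.13 (SD, n = 5 each), by -0.03 (95% interval -0.21 to 0.16). Of 12 cofactors of these families, 2 averaged higher and 10 lower, and the median was -0.07, with 0 genes at an unadjusted p under 0.05. Among them the nuclear receptor partner Rxra differed by -0.19 ± 0.10, Sp3 by -0.15 ± 0.09 and Rxrb by -0.11 ± 0.08.

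Heat shock and dissociation stress genes, which cells induce under protein-damaging or oxidative stress, were also read. Of 12 tested, 5 averaged higher and 7 lower, and the median was -0.05. Their mean level was 8.01, 8.12, 8.06, 7.78 and 8.42 on Control arrays 1 to 5 and 7.70, 7.81, 8.36, 8.36 and 7.50 on FMR1-KO arrays 1 to 5. Hspa1a, which like Srf above was named after its values were seen, read 8.96, 9.83, 10.2, 7.52 and 10.8 on Control arrays 1 to 5 and 7.01, 8.11, 10.6, 10.8 and 8.04 on FMR1-KO arrays 1 to 5. Control array 4 and FMR1-KO array 5 were therefore low in Hspa1a and among the 2 highest arrays for Ier2. Hspa1b, a near-identical copy whose signal may be shared with Hspa1a, differed by -0.54 ± 0.66 (SE) and Hspa1a by -0.55 ± 0.77. Hmox1, which encodes a heme-degrading enzyme, was lower at an unadjusted p of 0.0374 (-0.32 ± 0.14, SE, limma adjusted p = 0.654). At an unadjusted p under 0.05, 3.53% of all genes were lower. Hsp90aa1 and Dnajb1 differed by -0.17 ± 0.13 and -0.17 ± 0.20. Dnajb1 was lowest on FMR1-KO arrays 1 and 2 (7.01 and 7.03), where most members were lowest too, and Hmox1 was low on FMR1-KO array 5 (6.74), FMR1-KO array 1 (6.89) and Control array 1 (6.96).

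**Figure D4:**
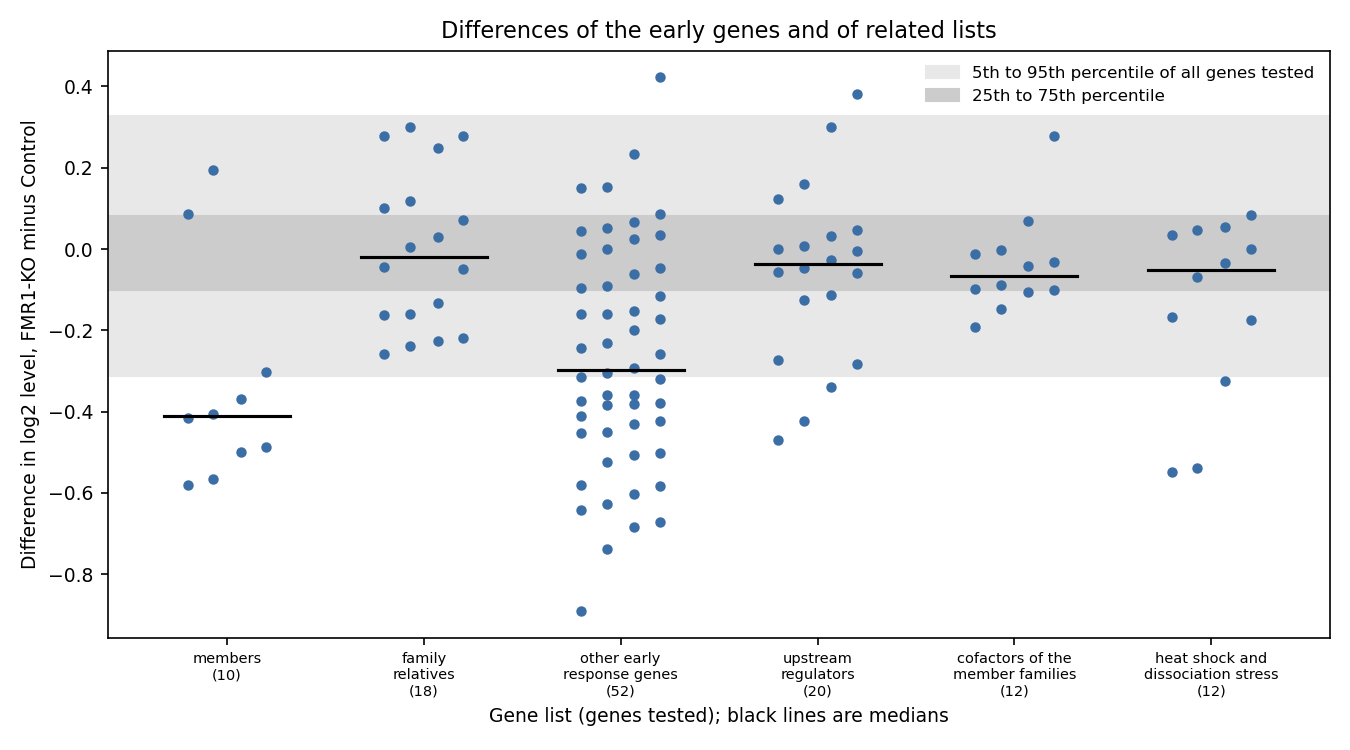
Difference in log2 level, FMR1-KO minus Control (vertical axis), of each tested gene in 6 lists, with black lines at the medians and grey bands from the 25th to the 75th and from the 5th to the 95th percentile of all genes tested. The medians of the members and of the other early response genes, -0.41 and -0.30, lie below the darker band (-0.10 to 0.08), and those of the other 4 lists lie within it.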

How the data were processed

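The authors deposited log2 signal values for 33793 probe sets on 10 Affymetrix arrays. The log2 scale was read from the values, 4.31 to 13.9 with array medians of 6.11 to 6.24. The design text names GeneSpring for the authors' comparison of the groups. How background was corrected and arrays were normalized is not given in the sources used here. Depth has no meaning for arrays, and their number limits the precision.

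Of these probe sets, 23521 carry 1 gene symbol, 1814 several and 8458 none listed. The brightest probe set per gene was kept, and genes with a mean under the 25th percentile of all probe sets (5.32) were not tested, which left 17712. By gene ID, 10 of 10 members were found in RefSeq's table for GRCm38.p6.

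Differences are FMR1-KO minus Control in log2 units. They were tested two-sided in limma 3.58.1 (lmFit, eBayes) under R 4.3.3, adjusted by Benjamini and Hochberg's method across the 17712 genes, with 0.05 as threshold. The script was tested on simulated data. Members and lists were chosen with earlier results of these data known, so the lower means of 8 of the 10 members are no independent evidence. Marker lists are summarised by their mean log2 level per array.

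All members are named, with up to 4 genes of smallest p per related list and, for likeness, the gene of highest r per member and the 5 of highest r for their mean, without predicted and small RNA genes. Alternatives were other scaling, filters, probe set rules, variance models, weighted arrays, a block for the replicate number, a looser threshold, marker covariates, and leaving out arrays.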

Additional observations from a re-analysis of the deposited data

Results flagged for a closer look

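Among 20 groups of 5 arrays (10 genes in each of the labelled groups), 2 held a reading whose gap to its nearest neighbour took up most of the group's range, more than Dixon's 95% critical value of 0.71. Chance flags about 1 in 20 groups. Nr4a1 read 9.06 on Control array 5 against 8.21 to 8.34 on the other Control arrays (ratio 0.85). Ier5 read 7.90 on Control array 1 against 8.85 to 9.18 on the others (ratio 0.744).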

How the results depend on the processing

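Of 23 alternatives, 22 were planned and 1, the endothelial covariate, was chosen after seeing the data. The arrays left out together were also picked by readings of these same data, microglia markers or Xist. None of the 23 put a member past the adjusted threshold in limma. The number of all genes past it was 0 in the main analysis, 0 to 1 when each array was left out in turn (1 without Control replicate 5), 1 without Control array 1 and FMR1-KO arrays 1 and 2 together, and 5 with the endothelial covariate. Members at an unadjusted p under 0.05 numbered 1 in the main analysis (3.53% of all genes lower at that level), 0 to 5 with each array left out in turn (2.34% to 7.09%), 3 without those 3 arrays together (5.57%), and 0 with the microglia covariate (2.67%). With the replicate number as a block (replicate block) the count was 6, and the share of all genes that were lower was 6.06%. Whether equal numbers mark a shared day or litter is unknown. The deviations of same-numbered arrays had correlations of 0.525, -0.0153, 0.191, 0.002 and 0.15. No Control array correlated best with the FMR1-KO array of its own number, and the reverse was not checked. The numbers were not taken as pairs. The median member difference was -0.0122 with the microglia covariate, -0.204 without the 3 arrays together, and -0.53 to -0.257 with each array left out.

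Egr2, Klf4, Klf6 and Ier3 kept a lower mean under every alternative. With the microglia covariate the sign turned for Egr1 (0.292), Klf2 (0.067), Ier2 (0.299), Ier5 (0.115) and Nr4a2 (-0.134), and Ier2 was 0.0874 without the 3 arrays together. Nr4a1 was -0.00118 with array weights, -0.0427 without Control arrays 2 and 3, -0.0178 without the 3 arrays, and -0.0236 to 0.238 with each array left out, and Nr4a2 was -0.0595 to 0.409. The causes were not tested. With 5 arrays a group, the 95% intervals of the members were wide, for Egr1 -1.58 to 0.42.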
